A study of Mus musculus with 12 samples.

Results

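Gdf5 and 9 other genes of the developing joint (Gdf6, Wnt9a, Sfrp2, Enpp2, Erg, Osr1, Osr2, Barx1 and Dcx) were followed in mouse limb buds at E12.5, a stage of embryonic limb development at which cartilage condensations are laid down. They were picked by gene symbol, as genes that mark or act in the joint interzone, and not by a threshold on a measured value. The choice was made with earlier results of these data known. Each symbol matched 1 row of a table of 54532 genes, and all 10 were expressed strongly enough to be tested in every comparison. The tested limb buds are labelled cKO and carry 2 floxed Mettl14 alleles (Mettl14 flox/flox, a conditional knockout). The control limb buds are labelled cHet and carry 1 wild-type and 1 floxed allele (Mettl14 wt/flox), so the controls too bear a floxed allele. The Cre line that acts on these alleles, the exons it removes, and whether a lysate pools several embryos are not given in the sources used here. RNA was sequenced from the polysome fraction of a sucrose gradient and from the cytoplasmic lysate loaded on it (the input). Each of the 4 groups (cKO polysome, cHet polysome, cKO input and cHet input) holds 3 libraries that the labels call biological replicates, 12 in all.

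Limb joints begin as an interzone, a band of flattened cells that appears across a continuous cartilage template where a joint will form. Interzone cells lose or suppress cartilage matrix genes and secrete signals of the BMP and WNT families, and their descendants contribute to articular cartilage, ligaments and joint lining. Gdf5 is the classical marker of the interzone and is itself a BMP-family ligand required for many joints of the digits. Mettl14 encodes a subunit of the complex that places N6-methyladenosine (m6A) on RNA, a mark read by proteins that act on RNA stability and translation.

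The libraries held 10349912 to 30068823 assigned reads, and the 10 joint genes were covered by 97 reads (Gdf6, cHet polysome 2) to 7260 reads (Sfrp2, cHet polysome 3). Values are FPKM, in which a gene's reads are divided by its length and by the depth of the library, so that levels can be compared between genes. All 12 limb mesenchyme markers were detected in every library, from Tbx4, a hindlimb transcription factor, at 2.52 to 4.15 FPKM to Twist1, a mesenchymal transcription factor, at 228 to 632 FPKM. In the principal components of all tested genes, 2 libraries stood apart from their groups. The library cKO input 3 lay at -63.0 on the second component, against 0.493 to 22.5 for the other input libraries. The library cKO polysome 1 lay at 3.97 on the first component, against 35.5 to 53.8 for the other polysome libraries. The input libraries lay at -41.5 to -36.2 on that component, so cKO polysome 1 was displaced from its fraction toward input. Both also differed in gene length: the median of genes of 6000 bases or more minus that of genes under 2000 bases was -0.29 (log2) in cKO input 3 and 0.35 in cKO polysome 1, against -0.072 to 0.062 in the other 10. Genotype differences of the joint genes that moved by over 1.5 times without the 1 of these libraries in their fraction are given with and without it. Mettl14 itself had 2.73, 2.81 and 3.29 FPKM on cKO polysomes, against 2.83, 3.07 and 3.02 FPKM on cHet polysomes. In input it had 2.60, 3.32 and 1.26 FPKM in cKO, against 4.09, 4.03 and 4.04 FPKM in cHet. The input difference was -0.83 (log2, SE 0.32, adjusted p = 0.295) and -0.45 without cKO input 3, and the polysome difference was -0.018 (adjusted p = 0.954). Whether the counted exons include the deleted part is not known from the sources used here, so these values do not settle how far Mettl14 was removed.

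The 10 genes spanned about the same order of levels in all 4 groups. Sfrp2 had the highest mean in every group, from 79.7 ± 3.35 FPKM in cKO input to 101 ± 33.6 FPKM in cHet polysomes (SD, n = 3 each), and Osr1 came next with means of 60.4 to 69.3 FPKM. Erg and Gdf5 followed, with overlapping ranges in cKO polysomes, cHet polysomes and cKO input. In cHet input Erg, at 16.3 to 19.3 FPKM, lay above Gdf5, at 11.3 to 15.1 FPKM. Osr2 and then Barx1 came next in each group. Gdf6, Wnt9a, Enpp2 and Dcx made up the lower end, with group means of 1.55 to 7.31 FPKM. The ranges of Gdf6, Enpp2 and Dcx overlapped along this lower end on polysomes of both genotypes. Prg4, which encodes lubricin of mature joint surfaces, was at most 0.106 FPKM in any library and was at 0 in 1 library.

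**Figure D1:**
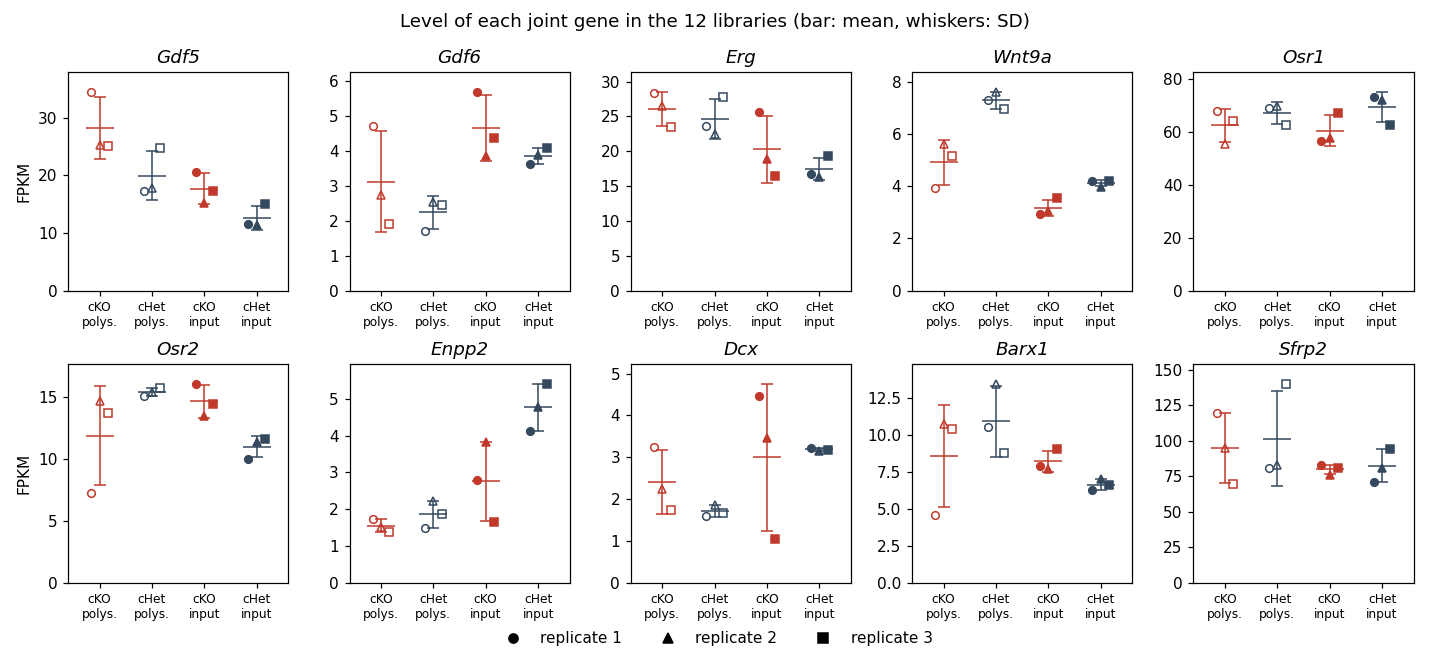
FPKM of each joint gene (y axes, linear, starting at 0) in cKO polysome, cHet polysome, cKO input and cHet input libraries (x axes). Points are single libraries with replicate numbers as shapes (open for polysome, filled for input), horizontal bars are means and whiskers SD (n = 3). Gdf5 is higher in every cKO library than in the cHet libraries of its fraction, Wnt9a is lower in every one, and 1 cKO library lies far below the other 2 for Osr2 and Barx1 on polysomes and for Dcx in input.

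The first question was whether the joint genes differed between cKO and cHet limb buds. Gdf5 was higher and Wnt9a was lower in all cKO libraries than in all cHet libraries of the same fraction, by about 0.5 log2 units each, while Gdf6, Erg, Osr1, Dcx and Sfrp2 overlapped between genotypes in both fractions. None of the 10 passed an adjusted p of 0.05 (limma, log2(FPKM + 0.1), two-sided, Benjamini-Hochberg over all tested genes) on polysomes, in input, or in the mean of both fractions of a lysate. On polysomes 0% of 12877 tested genes passed and 2743 had an unadjusted p under 0.05, and voom weights on the recovered reads also gave 0 calls with 2840 at that unadjusted p. In input 0% of 12977 genes passed and 1943 had an unadjusted p under 0.05, against 0 calls and 2060 genes with voom weights. Over the lysate means 1.5% of 13610 genes passed, 173 higher and 31 lower. That count was 0 when any lysate other than cKO 2 was left out, and 1077 without cKO 2. The median difference of the 10 genes was -0.096 on polysomes and 0.080 in input, against 0.025 and -0.010 over all tested genes. Groups of 3 libraries limit these tests: an exact permutation test of 3 against 3 cannot go below p = 0.1, and the labels do not say that replicates came from separate litters, so the p-values measure the spread between these libraries, part of which may be technical.

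Gdf5 (ENSMUSG00000038259) lies on the minus strand of mouse chromosome 2 at chr2:155941023-155945367 (mm10) and has 2 exons. On polysomes Gdf5 had 34.5, 25.2 and 25.1 FPKM in cKO, against 17.2, 17.8 and 24.8 FPKM in cHet. In input it had 20.6, 15.2 and 17.3 FPKM in cKO, against 11.6, 11.3 and 15.1 FPKM in cHet. The groups did not overlap in either fraction, but the lowest cKO library exceeded the highest cHet library by a narrow margin in both. Means were 28.3 ± 5.39 FPKM in cKO polysomes and 19.9 ± 4.19 FPKM in cHet polysomes, and 17.7 ± 2.72 FPKM in cKO input and 12.6 ± 2.10 FPKM in cHet input (SD, n = 3 each). The log2 difference was 0.50 on polysomes (SE 0.20, adjusted p = 0.199), 0.48 in input (SE 0.17, adjusted p = 0.260) and 0.49 over the lysate means (SE 0.17, adjusted p = 0.141). Under the alternatives tried it ranged from 0.35 to 0.67 on polysomes, from 0.37 to 0.61 in input and from 0.36 to 0.64 over the lysate means, with lowest adjusted p of 0.159, 0.115 and 0.112 in that order. In bulk limb bud RNA, more cells of the interzone type and more Gdf5 RNA per cell cannot be told apart. The gene Gm15557, on the opposite strand, shares 936 exon bases with Gdf5, and it was at most 0.247 FPKM in any library.

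Because Mettl14 belongs to a complex that marks RNA, the places in Gdf5 and Wnt9a that carry GGACT, the commonest m6A consensus word, are shown. Gdf5 and Wnt9a separated the genotypes in the same direction in both fractions, while Osr2 separated them in opposite directions and its sites are not shown. The Gdf5 transcript of 2320 bases (GENCODE M21) holds 5 such words, searched on the transcript strand only. Each is given with 10 bases on either side, 5′ to 3′, with the word in capitals; the upper 2 lie in the 5′ untranslated region, the next 2 in the coding sequence and the last in the 3′ untranslated region.
Gdf5, chr2:155945229-155945253, minus strand: ttccactatgGGACTggatacagac
Gdf5, chr2:155945203-155945227, minus strand: cacgcccggcGGACTtcaagacact
Gdf5, chr2:155944701-155944725, minus strand: gctgcagcccGGACTgtaaccccaa
Gdf5, chr2:155941744-155941768, minus strand: ccactgcgaaGGACTgtgtgagttc
Gdf5, chr2:155941372-155941396, minus strand: gatgtgatctGGACTaaagagatca
The Wnt9a transcript of 3320 bases also holds 5, the first in the coding sequence and the other 4 in the 3′ untranslated region.
Wnt9a, chr11:59328724-59328748, plus strand: gagcccgagtGGACTtccacaacaa
Wnt9a, chr11:59331399-59331423, plus strand: caagcggtgtGGACTttgcacacag
Wnt9a, chr11:59332658-59332682, plus strand: tgcggtatggGGACTctttggctcc
Wnt9a, chr11:59332869-59332893, plus strand: tgtggatgggGGACTctggtcccta
Wnt9a, chr11:59333357-59333381, plus strand: gtacagcagtGGACTcacaagggag
Gdf5 held 2.16 words per kilobase and Wnt9a 1.51, against a median of 1.04 over 11876 genes, and 8.92% of those genes were at least as dense as Gdf5. Enpp2 was the densest of the 10 at 2.26 words per kilobase, with 7 words, all in its coding sequence. Sfrp2 held none, Osr1 and Barx1 held 1 each, Gdf6 and Osr2 held 2 each, Erg held 3 and the long Dcx transcript held 8, and the median of the 10 genes was 0.903 per kilobase. A word occurs in 92.3% of the genes, so a match describes the sequence and is not evidence of methylation, which was not measured here.

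Gdf6 (ENSMUSG00000051279, chr4:9844372-9862345, plus strand), a ligand closely related to Gdf5 that is needed for other joints, had 4.72, 2.73 and 1.92 FPKM on cKO polysomes, against 1.70, 2.56 and 2.47 FPKM on cHet polysomes. In input Gdf6 had 5.70, 3.87 and 4.38 FPKM in cKO, against 3.63, 3.88 and 4.09 FPKM in cHet. The genotypes overlapped in both fractions, and cKO lysate 1 was the highest in each. Its log2 difference between genotypes was 0.39 on polysomes (SE 0.31, adjusted p = 0.480) and 0.24 in input (SE 0.17, adjusted p = 0.512), and the polysome value was 0.051 without cKO polysome 1.

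Wnt9a (ENSMUSG00000000126, chr11:59306928-59333552, plus strand) encodes a WNT ligand of the interzone that restrains cartilage formation there. It had 3.94, 5.63 and 5.18 FPKM on cKO polysomes, against 7.31, 7.63 and 6.98 FPKM on cHet polysomes. In input it had 2.96, 3.04 and 3.54 FPKM in cKO, against 4.21, 3.98 and 4.19 FPKM in cHet. Every cKO library lay below every cHet library of its fraction, and the cHet libraries were close together in both. On the log2 scale cKO differed from cHet by -0.58 on polysomes (SE 0.16, adjusted p = 0.123), -0.37 in input (SE 0.13, adjusted p = 0.270) and -0.47 over the lysate means (SE 0.12, adjusted p = 0.0778), the smallest adjusted p of the 10 genes in that comparison. It was -0.43 on polysomes without cKO polysome 1 and -0.45 in input without cKO input 3, and the lowest adjusted p under any alternative was 0.0511.

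Among the other secreted proteins, Sfrp2 (ENSMUSG00000027996, chr3:83766321-83774316, plus strand), a soluble modulator of WNT signalling, had 119, 94.9 and 69.7 FPKM on cKO polysomes, against 80.8, 83.0 and 140.0 FPKM on cHet polysomes. In input Sfrp2 had 82.6, 76.0 and 80.4 FPKM in cKO, against 71.2, 81.0 and 94.3 FPKM in cHet. The genotypes overlapped in both fractions, with log2 differences of -0.084 on polysomes and -0.036 in input and 95% confidence intervals of -0.70 to 0.53 and -0.34 to 0.27. Without cKO polysome 1 the Sfrp2 polysome value was -0.27. An antisense gene, Gm26771, shares 347 exon bases with Sfrp2 and reached at most 0.612 FPKM. Enpp2 (ENSMUSG00000022425, chr15:54838901-54952892, minus strand) encodes autotaxin, the enzyme that makes lysophosphatidic acid. It had 1.74, 1.52 and 1.38 FPKM on cKO polysomes, against 1.49, 2.22 and 1.87 FPKM on cHet polysomes. In input it had 2.80, 3.82 and 1.66 FPKM in cKO, against 4.13, 4.79 and 5.40 FPKM in cHet, so that only the input groups did not overlap. Between genotypes Enpp2 differed on the log2 scale by -0.84 in input (SE 0.29, adjusted p = 0.260) and -0.52 without cKO input 3, and it was -0.24 on polysomes (adjusted p = 0.497). Gm26684, on the opposite strand, shares 345 exon bases with Enpp2 and reached at most 0.0514 FPKM.

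Of the transcription factors, Osr1 and Osr2 encode related zinc finger proteins needed together for joint formation. Osr1 (ENSMUSG00000048387, chr12:9570116-9581500, plus strand) had 67.7, 55.4 and 64.0 FPKM on cKO polysomes, against 69.1, 69.7 and 62.4 FPKM on cHet polysomes. In input Osr1 had 56.4, 57.8 and 67.0 FPKM in cKO, against 73.1, 72.1 and 62.7 FPKM in cHet, with overlap in both fractions and log2 differences of -0.11 on polysomes (-0.17 without cKO polysome 1) and -0.20 in input. Osr2 (ENSMUSG00000022330, chr15:35296098-35303305, plus strand) differed in sign between the fractions. It had 7.25, 14.6 and 13.7 FPKM on cKO polysomes, against 15.1, 15.4 and 15.7 FPKM on cHet polysomes. In input it had 16.04, 13.4 and 14.4 FPKM in cKO, against 9.98, 11.4 and 11.6 FPKM in cHet. Every cKO library was thus below the cHet libraries on polysomes and above them in input. The Osr2 log2 difference was -0.44 on polysomes (SE 0.25, adjusted p = 0.333), with -0.12 when cKO polysome 1 was left out, and 0.41 in input (SE 0.12, adjusted p = 0.229).

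Barx1 (ENSMUSG00000021381, chr13:48662998-48666507, plus strand), a homeobox factor expressed in the interzone, had 4.60, 10.7 and 10.4 FPKM on cKO polysomes, against 10.5, 13.4 and 8.73 FPKM on cHet polysomes. In input Barx1 had 7.89, 7.71 and 9.02 FPKM in cKO, against 6.24, 6.98 and 6.58 FPKM in cHet. The polysome groups overlapped and the input groups did not. For Barx1 the log2 difference was -0.42 on polysomes (SE 0.32, adjusted p = 0.464), with -0.021 when cKO polysome 1 was left out, and 0.31 in input (SE 0.12, adjusted p = 0.302).

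Erg (ENSMUSG00000040732, chr16:95359169-95586593, minus strand), an ETS factor of joint cartilage that endothelial cells also express, had 28.3, 26.5 and 23.5 FPKM on cKO polysomes, against 23.6, 22.4 and 27.8 FPKM on cHet polysomes. In input Erg had 25.6, 18.8 and 16.4 FPKM in cKO, against 16.7, 16.3 and 19.3 FPKM in cHet. The genotypes overlapped in both fractions, with log2 differences of 0.084 on polysomes and 0.20 in input. The Erg polysome value was 0.023 without cKO polysome 1. In input it was 0.015 without cKO input 1 and 0.34 without cKO input 3. Endothelial markers were present in every library, with none of 12 at 0. Their summed level was 65.1 to 96.6 FPKM on cKO polysomes and 75.0 to 82.4 FPKM on cHet polysomes, and 74.4 to 109 FPKM in cKO input and 81.9 to 90.8 FPKM in cHet input. How much of the Erg signal came from endothelial cells was not tested.

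Dcx (ENSMUSG00000031285, chrX:143855842-143933311, minus strand) encodes doublecortin, a microtubule-binding protein best known from migrating neurons. It had 3.24, 2.24 and 1.74 FPKM on cKO polysomes, against 1.61, 1.86 and 1.67 FPKM on cHet polysomes. In input it had 4.48, 3.46 and 1.05 FPKM in cKO, against 3.23, 3.15 and 3.18 FPKM in cHet. The cKO input value of 1.05 FPKM came from cKO input 3, and Dcx has the longest gene model of the 10, at 12647 bases. The log2 difference was 0.42 on polysomes (SE 0.23, adjusted p = 0.304) and 0.20 without cKO polysome 1, and in input it was -0.31 with all libraries and 0.30 without cKO input 3. Of 14 neuronal markers 5 were tested in input, and Stmn3, Elavl3 and Prph were at 0 in 3, 1 and 3 libraries. The summed level of the 14 was 55.9 to 78.6 FPKM on cKO polysomes and 69.4 to 92.0 FPKM on cHet polysomes, and 52.9 to 64.7 FPKM in cKO input and 58.6 to 69.3 FPKM in cHet input. Most of this sum came from Gap43 and Uchl1, at 23.6 to 38.4 FPKM and 15.5 to 47.1 FPKM, and the tested markers differed in sign. Tubb3, a neuronal tubulin, had log2 differences of 1.40 on polysomes and 0.65 in input (adjusted p = 0.0848 and 0.199), and it passed over the lysate means (1.03, adjusted p = 0.0418), a comparison in which no gene passed when a lysate other than cKO 2 was left out. Uchl1 had -0.70 on polysomes and -0.47 in input, and Stmn2 had -0.55 and -0.42, none of them past the threshold. The neuronal part of the Dcx signal was not tested.

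**Figure D2:**
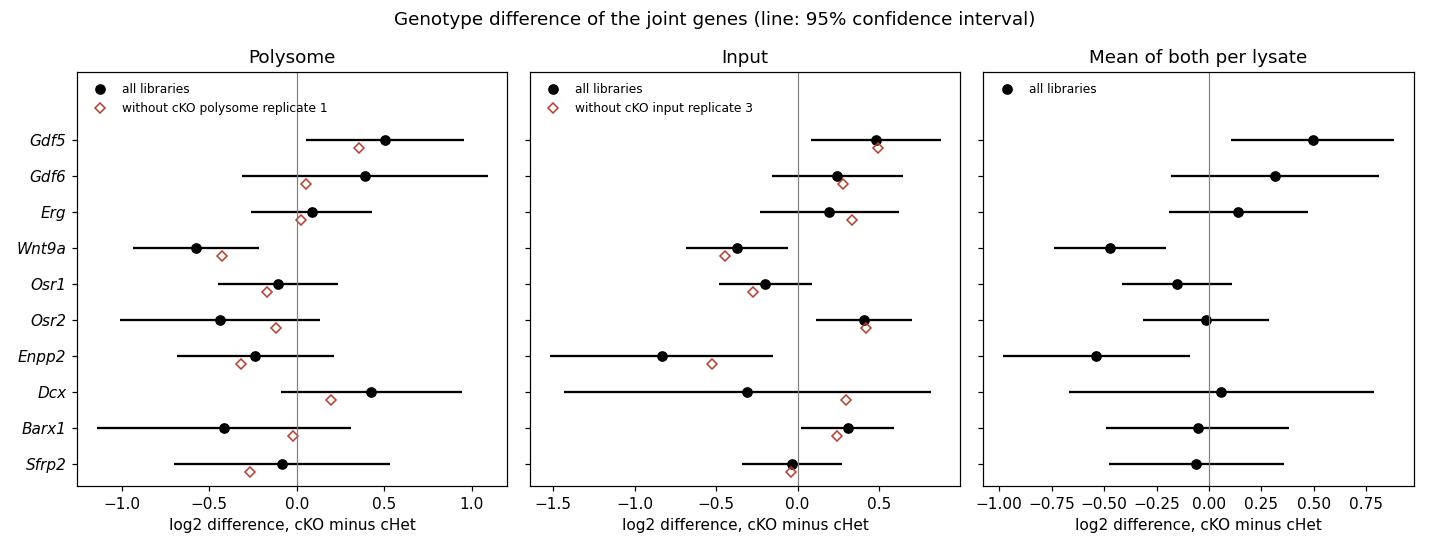
Difference of each joint gene between cKO and cHet (x axes, log2 units, cKO minus cHet) on polysomes, in input and in the mean of both fractions per lysate. Black points and lines are the limma estimate and its 95% confidence interval from all libraries, and open diamonds the estimate without cKO polysome replicate 1 or cKO input replicate 3. Gdf5 lies to the right and Wnt9a to the left of 0 in all 3 panels, and the Dcx diamond in input lies on the other side of 0 from its point.

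Counted together, 3 of the 10 genes did not overlap between genotypes on polysomes, with Gdf5 higher and Wnt9a and Osr2 lower in cKO, against 31.4% of all tested genes not overlapping in that comparison. In input 5 did not overlap, with Gdf5, Osr2 and Barx1 higher and Wnt9a and Enpp2 lower in cKO, against 29.3% of all genes. Over the lysate means Gdf5 was higher and Wnt9a and Enpp2 were lower without overlap, against 31.9% of all genes. The shares of 3 of 10 on polysomes and over lysate means are close to these backgrounds, and the genes did not move as a group in 1 direction. Summed markers of epidermis and macrophages did not overlap between genotypes in either fraction, and those of limb mesenchyme overlapped on polysomes and not in input. The sums for muscle, tendon, cartilage, endothelium, neurons, Schwann and neural crest cells and erythroid cells overlapped between genotypes in both fractions, the erythroid sum at 10744 to 25952 FPKM on cKO polysomes against 16432 to 31504 FPKM on cHet polysomes. The summed level of 12 epidermal markers was 249 to 476 FPKM on cKO polysomes against 191 to 203 FPKM on cHet polysomes, and 420.3 to 462 FPKM in cKO input against 356 to 364 FPKM in cHet input. That of 11 macrophage markers was 71.9 to 99.8 FPKM on cKO polysomes against 54.7 to 60.7 FPKM on cHet polysomes, and 56.7 to 81.1 FPKM in cKO input against 44.4 to 49.7 FPKM in cHet input. The highest of these polysome sums, 476 and 99.8 FPKM, both came from cKO polysome 1, which stood apart. In cKO polysome 2 and cKO polysome 3 they were 266 and 249 FPKM for epidermis and 71.9 and 78.5 FPKM for macrophages. Of the 12 epidermal markers, 11 were higher and 1 lower in cKO on polysomes, and 10 were higher and 2 lower in input. The summed level of 12 limb mesenchyme markers was 1101 to 1528 FPKM on cKO polysomes against 1126 to 1193 FPKM on cHet polysomes, and 803 to 1009 FPKM in cKO input against 638 to 735 FPKM in cHet input. The polysome overlap came from cKO polysome 1, which stood apart, at 1101 FPKM. The sums in cKO polysome 2 and cKO polysome 3 were 1307 and 1528 FPKM, above every cHet polysome sum. No marker of these 3 lists was at 0 in any library, and their part in the differences of the joint genes was not tested.

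The second question was how much of each joint transcript sat on polysomes relative to the input of the same lysate. This polysome to input ratio compares shares of the RNA of a fraction, not molecules per cell. Gdf5 and Wnt9a passed as enriched on polysomes and Enpp2 as depleted in both genotypes. Erg and Barx1 passed as enriched and Gdf6 as depleted in cHet only. In cKO Erg (0.38, log2) and Gdf6 (-0.63) had the same signs as in cHet without passing, and Barx1 was at -0.030. Osr1 and Sfrp2 had log2 differences within 0.27 of 0 in both genotypes. In cKO 3 of the 10 genes passed, 2 higher on polysomes (Gdf5 and Wnt9a) and 1 lower (Enpp2), against 32.5% of all 13610 tested genes (16.9% higher and 15.6% lower). In cHet 6 passed, 4 higher (Gdf5, Erg, Wnt9a and Barx1) and 2 lower (Gdf6 and Enpp2), against 53.2% of all tested genes (27.3% higher and 25.9% lower). The joint genes thus passed about as often as genes in general. With the lysate as a block in the fit, 5 joint genes passed in cKO and 7 in cHet, against 32.9% and 54.6% of all tested genes. Leaving out both libraries that stood apart gave 5 in cKO, where 59.5% of all tested genes then passed, and 1 remained (Wnt9a) in cKO once a gene length trend was removed from each library, against 28.7% of all tested genes.

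Wnt9a was the most firmly enriched. Its ratio was 1.33, 1.85 and 1.47 in cKO lysates, against 1.74, 1.92 and 1.67 in cHet lysates. Its polysome minus input difference was 0.60 (log2) in cKO (SE 0.14, adjusted p = 0.00881) and 0.81 in cHet (SE 0.14, adjusted p = 8.07e-04), and it passed in both genotypes under every alternative tried. Gdf5 had ratios of 1.67, 1.66 and 1.45 in cKO lysates, against 1.49, 1.57 and 1.64 in cHet lysates, all 6 above 1. Its log2 difference was 0.67 in cKO (SE 0.19, adjusted p = 0.0212) and 0.65 in cHet (SE 0.19, adjusted p = 0.0148). The Gdf5 call did not hold in cKO without cKO polysome 1 (0.52, adjusted p = 0.05001), without cKO input 2 (0.56, adjusted p = 0.0776) or without both libraries that stood apart (0.50, adjusted p = 0.0537). It was also lost when the gene length trend was removed, with 0.47 (adjusted p = 0.0886) in cKO and 0.44 (adjusted p = 0.0834) in cHet. In cHet it was lost without cHet input 1, cHet input 2 or cHet polysome 3, at 0.59, 0.57 and 0.48 (adjusted p = 0.0558, 0.0587 and 0.0680).

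Gdf6 went the other way from Gdf5. Its ratio was 0.828, 0.706 and 0.439 in cKO lysates, against 0.470, 0.658 and 0.604 in cHet lysates, all 6 below 1. For Gdf6 the log2 difference was -0.63 in cKO (adjusted p = 0.0946, and 0.0403 with the lysate block) and -0.78 in cHet (SE 0.27, adjusted p = 0.0307). In cKO it was -0.97 without cKO polysome 1 (adjusted p = 0.00523) and -1.005 without both libraries that stood apart (adjusted p = 0.00417). The cHet call was lost without any of cHet input 1, 2 or 3 or cHet polysome 1, with adjusted p of 0.0571, 0.0702, 0.0831 and 0.124, and with quantile normalization (adjusted p = 0.0620) or no filter on low values (adjusted p = 0.0776). Erg had ratios of 1.11, 1.41 and 1.43 in cKO lysates, against 1.41, 1.38 and 1.44 in cHet lysates. Its log2 difference was 0.38 in cKO (adjusted p = 0.102, and 0.0460 with the lysate block), with 0.24 without cKO input 3, and 0.49 in cHet (SE 0.17, adjusted p = 0.0277). The Erg call in cHet was lost without cHet input 1 or 2 or cHet polysome 1 or 3, at adjusted p of 0.0823, 0.0902, 0.0573 and 0.102, and passed in cKO without cKO input 1 (0.56, adjusted p = 0.0220).

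Enpp2 had the strongest depletion of the 10 genes in cHet. Its ratio was 0.623, 0.399 and 0.830 in cKO lysates, against 0.361, 0.464 and 0.346 in cHet lysates. On the log2 scale the difference was -1.32 in cHet (SE 0.26, adjusted p = 0.00130), which held under every alternative tried. In cKO it was -0.72 (SE 0.26, adjusted p = 0.0472), a call that was lost when any single library other than cKO input 3 and cKO polysome 1 was left out, with an adjusted p of up to 0.179 (-0.46 without cKO input 2). It was also lost with looser filters, voom weights or the length trend removed, and was -1.12 (adjusted p = 0.00101) without both libraries that stood apart. Dcx had ratios of 0.723, 0.647 and 1.66 in cKO lysates, against 0.497, 0.591 and 0.525 in cHet lysates. Its log2 difference was -0.86 in cHet (adjusted p = 0.0864, and 0.0203 with the lysate block) and -0.13 in cKO (adjusted p = 0.831). The cKO ratio of 1.66 came from lysate 3, whose input library stood apart. Without that library the Dcx values were -0.73 in cKO (adjusted p = 0.0182) and -0.86 in cHet (adjusted p = 0.00239), and without both such libraries the Dcx values were -0.96 in cKO (adjusted p = 5.34e-04) and -0.86 in cHet (adjusted p = 1.61e-04).

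For Barx1 the ratio was 0.582, 1.39 and 1.15 in cKO lysates, against 1.69, 1.92 and 1.33 in cHet lysates. Its log2 difference was 0.69 in cHet (SE 0.27, adjusted p = 0.0475), and -0.030 in cKO (adjusted p = 0.944). The cHet call was lost without cKO input 1 or 2, any of the 3 cHet input libraries, or cHet polysome 1 or 2, with an adjusted p of up to 0.166, and it was 0.39 (adjusted p = 0.198) with the length trend removed. Without both libraries that stood apart, Barx1 had 0.43 in cKO (adjusted p = 0.0400). Osr2 had ratios of 0.452, 1.09 and 0.952 in cKO lysates, against 1.51, 1.35 and 1.36 in cHet lysates. The Osr2 log2 difference was -0.36 in cKO (adjusted p = 0.219), with -0.042 without cKO polysome 1, and 0.49 in cHet (adjusted p = 0.0765, and 0.00263 without cKO polysome 1, through the shared estimate of spread). Osr1 ratios were 0.945 to 1.20 over the 6 lysates and Sfrp2 ratios 0.868 to 1.48, with log2 differences of 0.045 and 0.21 in cKO and -0.046 and 0.26 in cHet. The cKO value of Sfrp2 was 0.031 without cKO polysome 1.

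**Figure D3:**
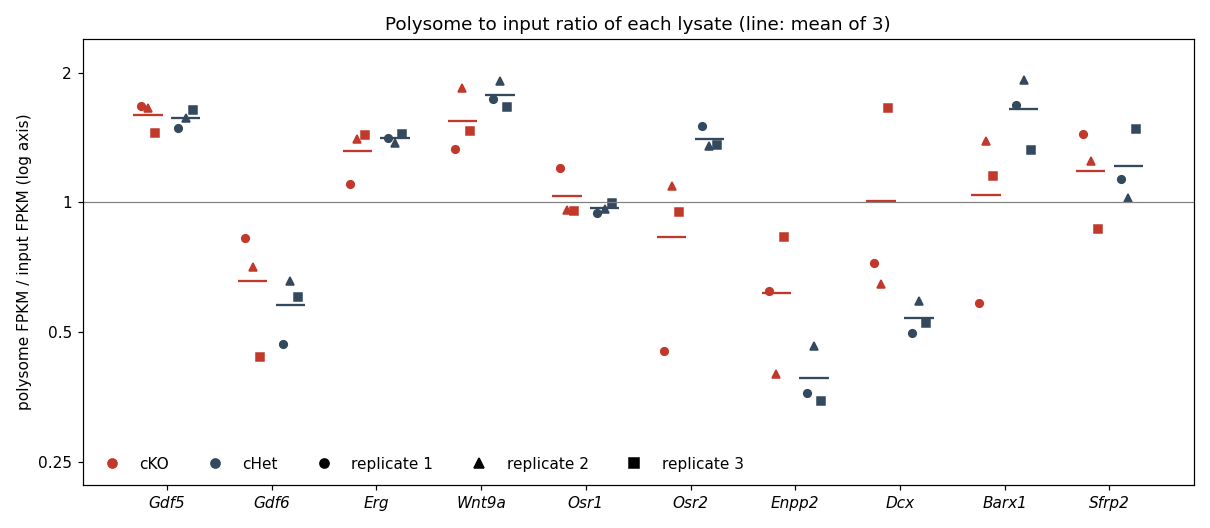
Polysome FPKM divided by input FPKM of the same lysate (y axis, log scale) for each joint gene (x axis). Red points are cKO and dark points cHet lysates, shapes give the replicate number and lines the mean of 3. Gdf5 and Wnt9a lie above 1 and Gdf6 and Enpp2 below 1 in all 6 lysates, and the 3 cKO values of Osr2 lie below its 3 cHet values.

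The genotypes were then compared for the ratio itself, as the difference of the log2 differences. None of the 10 genes passed, as did 0% of the 13610 genes tested (limma), and 638 genes, 4.69% of all, had an unadjusted p under 0.05. Voom weights also gave 0 calls, with 697 genes at that unadjusted p. Osr2 was the 1 gene of the 10 at an unadjusted p under 0.05, with -0.85 (SE 0.31, unadjusted p = 0.0171, adjusted p = 0.790) and -0.54 without both libraries that stood apart. Its cKO and cHet ratios did not overlap, nor did those of Dcx, against 18.4% of all genes. For Osr2 this follows from its opposite separation of the genotypes in polysomes and input. For Gdf5 the difference in ratio was 0.022 with a 95% confidence interval of -0.58 to 0.62 (adjusted p = 0.985). With 3 lysates a group, a difference of either sign within that interval remains compatible with these values. The value for Wnt9a was -0.21 with an interval of -0.65 to 0.24, and it was 0.018 without both libraries that stood apart.

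Genes that receive and relay the Gdf5 signal were measured alongside. They were 16 genes for BMP receptors (such as Bmpr1b, the type I receptor with the highest affinity for the Gdf5 protein), the co-receptor Ror2, Smad proteins and the Id genes that BMP signalling induces, and all 16 were tested. On polysomes 14 were higher and 2 lower in cKO than in cHet, in input 12 were higher and 4 lower, and none passed in either fraction. Over all tested genes 6814 of 12877 were higher on polysomes and 6302 of 12977 in input. Without overlap, 3 of the 16 were higher and 1 lower on polysomes, against 31.4% of all tested genes. In input 6 were higher and 1 lower without overlap, against 29.3%. Acvr2b, a type II receptor, averaged 12.6 ± 2.53 FPKM on cKO polysomes and 6.73 ± 0.209 FPKM on cHet polysomes, and 11.01 ± 3.11 FPKM in cKO input and 5.81 ± 0.738 FPKM in cHet input (SD, n = 3 each). Its log2 difference was 0.88 in both fractions (adjusted p = 0.0845 on polysomes and 0.173 in input). Ror2 had differences of 0.84 and 0.59 (adjusted p = 0.123 and 0.251), and Smad1, which carries the signal to the nucleus, 0.37 and 0.38 (adjusted p = 0.254 and 0.199), each on polysomes and then in input.

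Smad7, an inhibitory Smad, was the 1 gene of these 16 that passed over the lysate means, where it rose by 0.68 in cKO (SE 0.12, adjusted p = 0.0464), against 1.5% of all genes. It averaged 10.5 ± 0.287 FPKM on cKO polysomes and 7.38 ± 0.753 FPKM on cHet polysomes, and 13.4 ± 3.43 FPKM in cKO input and 7.27 ± 0.463 FPKM in cHet input (SD, n = 3 each). No gene passed that comparison when a lysate other than cKO 2 was left out, so the Smad7 call did not hold there. Bmpr1b had -0.40 over the lysate means (adjusted p = 0.243). The median of the 16 differences was 0.12 on polysomes and 0.25 in input, against 0.025 and -0.010 over all tested genes. In the polysome to input comparison Id2, Id3, Smad6 and Id1 rose on polysomes in both genotypes, with 0.86, 0.69, 0.53 and 0.63 in cKO and 1.12, 0.87, 0.66 and 0.59 in cHet. Ror2 fell on polysomes in both, with -0.71 in cKO and -0.96 in cHet, and Acvr1 fell in cHet with -0.62. Of the 16, 4 passed higher and 1 lower in cKO, against 16.9% and 15.6% of all tested genes. In cHet 4 passed higher and 2 lower, against 27.3% and 25.9%.

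A further 18 genes of joint formation gave a picture of the same size. Of these 11 were tested on polysomes and 15 in input, and 0 passed between genotypes in either fraction or over the lysate means. On polysomes 8 were higher and 3 lower in cKO, and in input 4 were higher and 11 lower, with medians of 0.13 and -0.14. Over all tested genes 6814 of 12877 were higher on polysomes and 6302 of 12977 in input, with medians of 0.025 and -0.010. On polysomes the smallest p-values were those of Trps1 (0.27), Has2 (0.30), Lmx1b (-0.31) and Creb5 (-0.23), and in input those of Sulf1 (-0.29), Chrd (0.35), Lgr5 (-0.35) and Creb5 (-0.58), all log2 differences with an adjusted p of at least 0.255. Against input, Wnt4, a second WNT ligand of the interzone, rose on polysomes by 0.84 in cKO (adjusted p = 0.00381) and 1.02 in cHet (adjusted p = 5.31e-04), as Wnt9a did. Sulf1, an extracellular sulfatase, and Cd44, a hyaluronan receptor, fell on polysomes by 0.68 and 0.62 in cKO and by 1.11 and 0.98 in cHet. In cHet Jun, Lgr5, Foxc2 and Chrd also fell. Of 15 tested, 1 passed higher and 2 lower in cKO, against 16.9% and 15.6% of all tested genes. In cHet 1 passed higher and 6 lower, against 27.3% and 25.9%. Wnt16, Prg4 and Col22a1 stayed under 1 FPKM in every library.

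Runx2 and Runx3, transcription factors of cartilage and bone formation named in the study's title, are given for comparison with Gdf5. Runx2 had 1.104, 1.11 and 1.19 FPKM on cKO polysomes, against 2.31, 1.62 and 1.79 FPKM on cHet polysomes, a log2 difference of -0.69 (SE 0.19, adjusted p = 0.128), and it had -0.60 in input (adjusted p = 0.231). Runx3 had 0.674, 1.16 and 0.977 FPKM on cKO polysomes, against 2.31, 1.80 and 1.89 FPKM on cHet polysomes, with -1.04 (SE 0.23, adjusted p = 0.0911). In a limma fit over all 12 libraries its adjusted p was 0.0456, and 1.35% of all tested genes passed. Leaving out 1 polysome library at a time gave -1.20 to -0.84, with adjusted p of 0.0560 to 0.344. Its fewest reads were 76, in cKO polysome 1. In input Runx3 had -0.30 (adjusted p = 0.514).

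Across the 12 libraries, with each value centred within its fraction, Gdf5 varied most like Gdf6 (Pearson r = 0.755) and Erg (0.727) among the 10 genes, and least like Wnt9a (-0.832). Osr2 and Barx1, both low in cKO polysome 1, had r = 0.888. Among 7453 protein-coding genes with a mean of at least 5 FPKM, the 5 closest to Gdf5 were Pam (0.980), Ptpdc1 (0.974), Fgfr2 (0.965), Fbxo28 (0.956) and Lrrc8c (0.953). The median r over these candidates was 0.0783 and the 95th percentile 0.829, so high values were common. Pam had 12.4, 9.42 and 8.80 FPKM on cKO polysomes, against 6.96, 7.21 and 9.61 FPKM on cHet polysomes, with the third cHet library the highest of its group, as for Gdf5. The genotype difference was not removed from the values, so the opposite differences of Gdf5 and Wnt9a given above are part of their r. These correlations are descriptions over libraries that share genotype, lysate and depth.

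**Figure D4:**
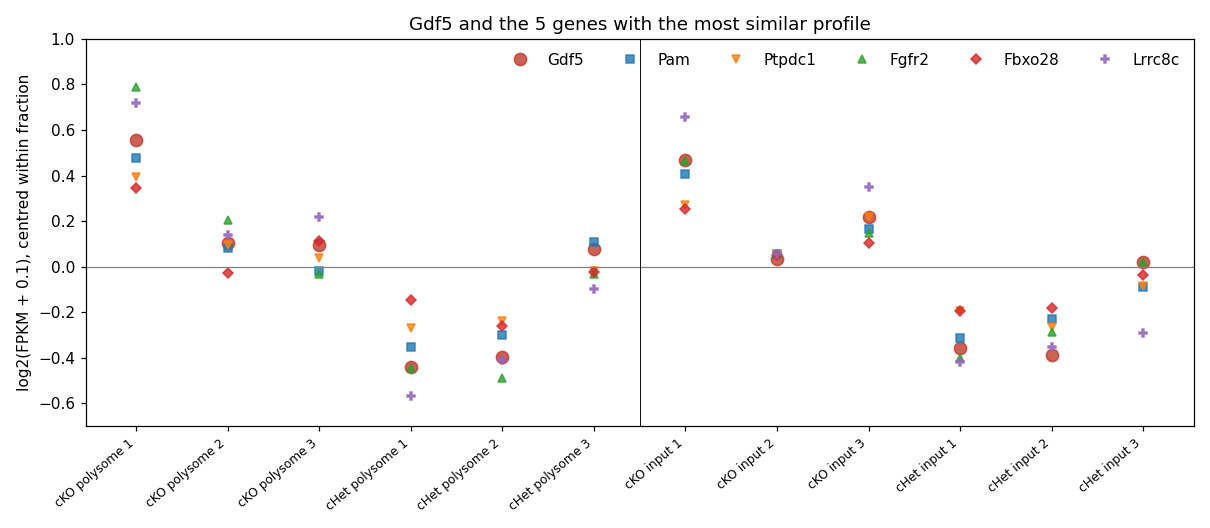
log2(FPKM + 0.1) of Gdf5 and of the 5 genes most correlated with it, centred on 0 within polysome libraries (left) and within input libraries (right), in each of the 12 libraries (x axis). In each fraction the cKO replicate 1 library is the highest for all 6 genes, and the cHet replicate 1 and 2 libraries are the lowest for Gdf5.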

How the data were processed

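RNA-seq was done on 12 libraries, 3 in each of 4 groups taken from the sample titles. The authors deposited 1 table of FPKM values with gene lengths and coordinates. HISAT2 2.0.5, featureCounts 1.5.0-p3 and the mm10 build are named in the submitters' processing notes. Strandedness, RNA selection and the annotation release are not given in the sources used here. Sense and antisense reads over shared exons are therefore not separable. FPKM times gene length returned whole reads (tolerance 0.01) for 100% of values above 0.

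Differences are on the log2(FPKM + 0.1) scale, which understates changes of low genes, fitted with limma 3.58.1 (R 4.3.3, trended empirical Bayes) after tests on simulated data. A gene was tested if it reached 1 FPKM in at least 3 fitted libraries. Genotypes were compared within 6 libraries per fraction and over 3 against 3 lysate means. Polysome against input and the difference between genotypes used all 12 libraries with 4 group means. Input and polysome libraries of the same genotype and number were read as 1 lysate, from the design. Their deviations correlated at 0.0525 to 0.249, and the lysate block was an alternative. Other alternatives were the pseudocount, filters, scaling, robust fitting, voom weights and leaving out each library. The length trend and the omission of both libraries that stood apart were chosen after seeing the data. Members and lists were chosen with earlier results of these data known. Named genes are the 10 members, Mettl14, Runx2, Runx3, up to 4 genes of smallest p per list and the 5 genes most correlated with Gdf5. Other genes named (Twist1, Tbx4, Prg4, Gap43, Uchl1, Tubb3, Stmn2, Bmpr1b, markers at 0, genes listed as passing) were chosen after their values were seen. Gene structures and sequences came from GENCODE M21, which held 54495 of the 54532 identifiers.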

Additional observations from a re-analysis of the deposited data

Results flagged for a closer look

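Osr2 was picked out because its genotype difference had opposite signs in the fractions, with no overlap between genotypes in either. The log2 difference between cKO and cHet was -0.44 on polysomes and 0.41 in input, and the difference of the differences was -0.85 (unadjusted p = 0.0171, adjusted p = 0.790 by limma over 13610 genes). With that pattern each cKO ratio of polysome to input had to lie below each cHet ratio, so the ratios add no separate support. The lowest Osr2 library, at 7.25 FPKM, was cKO polysome 1, which stood apart from its group. Without it the polysome difference was -0.12, and without both libraries that stood apart the difference of the differences was -0.54. The part of those libraries in the pattern beyond these values was not tested.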

How the results depend on the processing

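No joint gene passed between genotypes, on polysomes, in input, over lysate means or for the ratio, under any of the alternatives run. Over all genes, a fit across 12 libraries gave 184 calls on polysomes and 82 in input, against 0 in each. Over lysate means the 204 calls became 0 with no filter on low values, 71 with a filter of 0.3 FPKM and 359 with the length trend removed. For the ratio there was 1 call with a pseudocount of 0.01 and 7 with no filter, against 0. In cKO 8012 genes passed between polysome and input without both libraries that stood apart, against 4424. Joint genes passing in cKO numbered 5 with the lysate block, 1 with the length trend removed and 5 without both libraries (32.9%, 28.7% and 59.5% of all tested genes), against 3 (32.5%). In cHet they numbered 3 with no filter (21.9%), against 6 (53.2%). Leaving out 1 library at a time gave 0 to 231 calls on polysomes (160 without cKO polysome 1, 231 without cKO polysome 2 and 1 without cHet polysome 1), 0 to 326 in input (47 without cKO input 2 and 326 without cKO input 3) and 0 to 1077 over lysate means (1 lysate at a time). It gave 2441 (without cKO polysome 3) to 6023 in cKO polysomes against input. The same omissions left 1 (without cKO input 2, 24% of all genes) to 4 joint genes passing in cKO (without cKO input 3, 42.6%). In cHet they left 2 (without cHet input 1 or 2, 43.4% and 44.1%) to 7 (without cKO input 3 or cKO polysome 1, 65.1% and 57.7%), with 3 without cHet polysome 1 (42.4%).

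The labels do not say that replicate numbers shared by cKO and cHet are pairs, and they were not treated as pairs in the main fits. Deviations of same-numbered libraries of the 2 genotypes correlated at -0.281 to 0.165. With 3 libraries a group these values cannot settle whether the numbers are pairs. The replicate number as a block gave 42 calls on polysomes, 0 in input and 2 over lysate means. Beyond the calls named in the report, the lysate block changed no call of a joint gene.

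Signs of small differences turned. With quantile normalization the polysome against input value was -0.23 for Osr1, 0.012 for Barx1 and -0.063 for Sfrp2 in cKO and -0.12 for Sfrp2 in cHet, and the difference in ratio was -0.041 for Gdf5 and 0.054 for Sfrp2. With the length trend removed the cKO value was -0.18 for Osr1 and 0.12 for Dcx, and voom weights gave 0.020 for Barx1. Without both libraries that stood apart Barx1 had 0.43 in cKO, and the difference in ratio was -0.14 for Gdf5, -0.23 for Gdf6, 0.018 for Wnt9a and -0.10 for Dcx. Leaving out 1 library at a time, genotype differences crossed 0 in input for Dcx (-0.70 to 0.30) and Sfrp2 (-0.13 to 0.068), and on polysomes for Sfrp2 (-0.27 to 0.17) and Mettl14 (-0.097 to 0.032). Over lysate means they did so for Barx1 (-0.18 to 0.16), Dcx (-0.25 to 0.46), Osr2 (-0.079 to 0.11) and Sfrp2 (-0.18 to 0.12). Polysome against input values crossed 0 in cKO for Barx1 (-0.24 to 0.36), Dcx (-0.73 to 0.26) and Osr1 (-0.016 to 0.13), and in cHet for Osr1 (-0.12 to 0.0049). Differences in ratio crossed 0 for Gdf5 (-0.13 to 0.19), Gdf6 (-0.19 to 0.44), Erg (-0.25 to 0.069) and Sfrp2 (-0.23 to 0.21). The causes of these changes were not tested. Depth limits Gdf6, Enpp2 and Barx1 most, with 97, 138 and 145 reads in their lowest libraries.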
